A study of Mus musculus with 4 samples.

Results

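Genes of voltage-gated sodium and calcium channels, hyperpolarization-activated (HCN) channels, transient receptor potential (TRP) cation channels and CLC chloride channels were examined in the mouse dentate gyrus (DG) after 2 antidepressant treatments. The rule that picked them uses name and signal and no difference between groups, but it was set with earlier results of these data known. A gene was taken when the platform annotation gave its probe set a single symbol beginning with Scn, Cacn, Hcn, Trpc, Trpm, Trpv or Clcn. The mean signal over the 4 arrays had to be at least 50, and the brightest probe set stood for the gene. Of 60 genes with such a symbol on the array, 35 passed, out of 7935 genes that passed the same filter in all. Of these 35, Scnm1 (a splicing factor) and Trpc4ap (an adaptor protein) fit the rule by their names only and are not channel subunits. HCN channels are represented by Hcn2 alone. Most of the group is made up of genes named as calcium channel subunits (16), TRP channels (7), voltage-gated sodium channel subunits (4) and CLC genes (4). The 16 include 5 genes of the gamma family, several of whose members do not serve calcium channels.

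The DG was taken from C57Bl/6 mice of 4 groups. One group had 11 sessions of electroconvulsive stimulation (ECS) under isoflurane, and the sham group had the anaesthesia and handling but no current. The other groups drank fluoxetine, a selective serotonin reuptake inhibitor, at 22 mg/kg per day for 4 weeks in water with saccharin, or the vehicle. For the sham and ECS arrays the labels state 6 h after the last session, whereas the study's methods place the dissection on the next day. The methods describe male mice bought at 8 weeks of age. The RNA of each group was pooled and measured on 1 array of the Affymetrix 430A 2.0 type. Each group thus has a single value per gene, without a p-value or an SD. The fluoxetine pool came from 3 mice selected for small frequency facilitation at the mossy fiber synapse, and the series' design text describes that selection for the treated mice in general. Such pools represent mice with a response in the slice and not the average treated mouse.

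These channels set how a neuron fires. Sodium channel alpha subunits form the pore that carries the action potential and beta subunits tune it, while calcium channel alpha1 subunits form pores that admit calcium on depolarization and are brought to the membrane by alpha2delta and beta subunits. Several members of the gamma family do not serve calcium channels but escort AMPA-type glutamate receptors, and are known as TARPs. TRPC channels are cation channels opened downstream of receptors coupled to phospholipase C. Granule cells of the DG are known for strong T-type calcium currents early in their maturation.

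Values are signal intensities (MAS5), which were deposited without a common scale and were here multiplied by 1 factor per array (1.19 for sham, 1.29 for ECS, 0.842 for vehicle and 0.773 for fluoxetine) so that the median log2 signal was equal on all arrays. Signals given below are scaled, and a log2 ratio is that of scaled treated over scaled control signal. Scaling raised each log2 ratio of ECS to sham by 0.11 and lowered each of fluoxetine to vehicle by 0.12. A gene is called changed at 1.5-fold or more, a log2 ratio of 0.58 in size. The only measure of spread is the difference between the sham and vehicle pools, which were also handled differently. The control spread of a probe set is the scaled median absolute deviation of that difference (log2 sham minus log2 vehicle) among its 500 neighbours in signal. For the 35 genes it ran from 0.12 for the brightest to 0.41 for the dimmest. Signals of different genes come from different probes and are not compared with each other.

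With ECS, 5 of the 35 genes were higher and 2 lower. Over all 7935 genes, 5.34% were higher and 4.18% lower. With fluoxetine 4 were higher and 5 lower, against 5.82% and 5.13% of all genes. Between sham and vehicle 2 of the 35 were higher and 1 lower, against 1.99% and 1.21%. The shares of changed genes were thus 20.0% with ECS and 25.7% with fluoxetine, where 9.53% and 11.0% of all genes were changed. Whether these shares differ from those of all genes cannot be tested with 1 array per group. The medians over the 35 genes were -0.06 in each comparison (0.01 and -0.01 over all genes), and so lay close to 0. Without scaling, 4 were higher and 3 lower with ECS (3.84% and 6.47% of all genes) and 4 higher and 3 lower with fluoxetine (8.49% and 3.26%), and the medians were -0.17 and 0.06. Cacna1g and Cacna2d2 were higher and Cacng5 was lower with both treatments, and 22 of the 35 genes (62.9%) changed with neither, against 84.5% of all genes. Of all genes, 3.04% were higher and 1.88% lower with both.

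**Figure D1:**
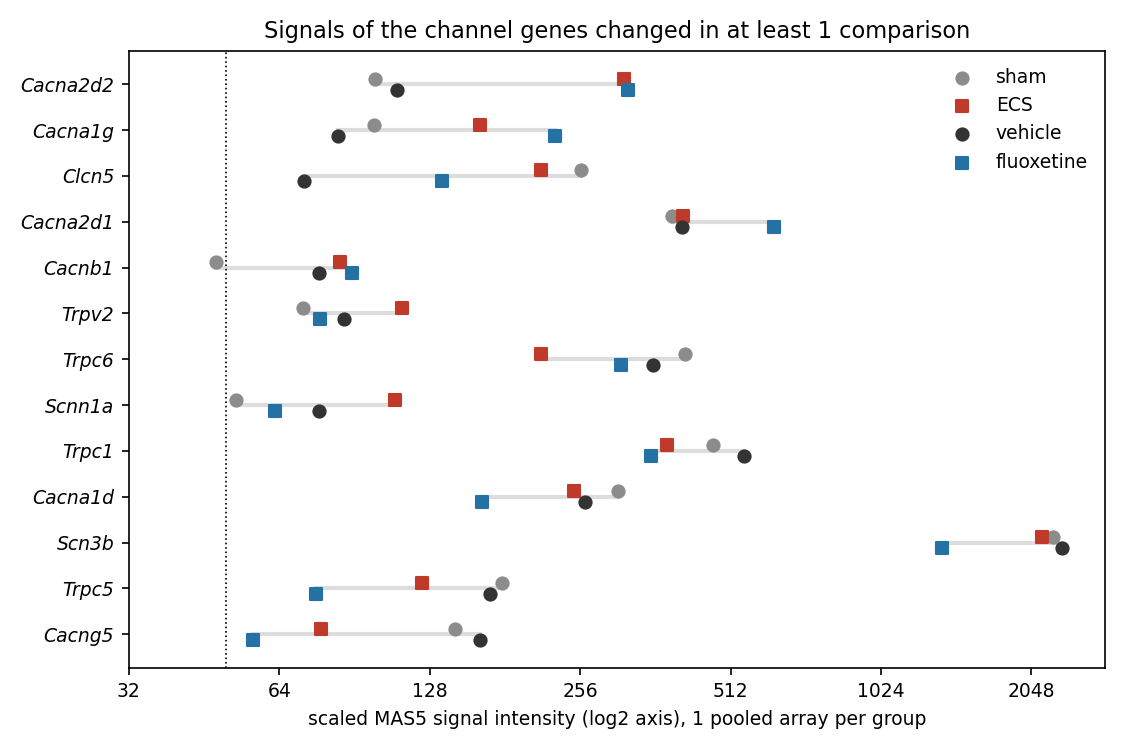
Scaled MAS5 signal (log2 axis) of the 13 channel genes changed at least 1.5-fold in at least 1 comparison, ordered by the log2 ratio of fluoxetine to vehicle. Each symbol is 1 pooled array (circles, untreated; squares, treated), the grey bar spans the 4 arrays of a gene and the dotted line marks 50; signals should be compared within a gene only. Both squares lie far to the right of both circles for Cacna2d2 (314 and 319 against 99.7 and 110.1) and to the left for Cacng5.

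The largest change belonged to Cacna2d2 (probe set 1450754_at), which encodes an alpha2delta subunit, an extracellular protein that increases the number of calcium channels at the membrane. Its signal was 99.7 in the sham pool, 314 after ECS, 110.1 in the vehicle pool and 319 after fluoxetine. Both treated pools were thus about equal and far above both untreated pools. The log2 ratio was 1.65 for ECS over sham and 1.53 for fluoxetine over vehicle. The untreated pools differed by a log2 ratio of -0.14, and the control spread was 0.22. In these pools, more cells that express a gene and more RNA per cell cannot be told apart. Cacna2d1, the alpha2delta subunit bound by gabapentin, had signals of 392 (sham), 412 (ECS), 409 (vehicle) and 626 (fluoxetine). The fluoxetine pool alone stood apart, with a log2 ratio of 0.62, against 0.07 with ECS. A dim second probe set of Cacna2d1 had 1.04 with fluoxetine and 0.39 with ECS, with signals below 50 on the other 3 arrays. Cacna2d3 had signals of 676, 869, 590.0 and 715 in the same order. These are log2 ratios of 0.36 and 0.28, above its control spread of 0.15 but under 1.5-fold. The fluoxetine pool lay only slightly above the sham pool for this gene. Of the 3 measured alpha2delta genes 1 was thus higher with ECS and 2 with fluoxetine, and the medians of the 3 were 0.36 and 0.62. The ECS value of Cacna2d1 was within its control spread of 0.18 and was -0.04 without scaling.

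Of the 5 pore-forming alpha1 genes, 1 was higher with ECS, and 1 was higher and 1 lower with fluoxetine. Cacna1g (1423365_at) encodes the T-type channel Cav3.1, which opens at potentials close to rest. Its signals were 99.1 in the sham pool, 161 after ECS, 83.7 with vehicle and 229 after fluoxetine. Both treated pools were above both untreated pools, and the fluoxetine pool was the higher. The log2 ratios were 0.70 and 1.45 at a control spread of 0.26. The other measured T-type gene, Cacna1h, had -0.11 and -0.34, with signals of 623, 577, 634 and 499 for sham, ECS, vehicle and fluoxetine. The ECS value of Cacna1h was within its control spread of 0.18. Cacna1d (1427974_s_at), an L-type pore that opens at relatively negative potentials, had signals of 304, 248, 262 and 163 in that order. It was lowest in the fluoxetine pool, with a log2 ratio of -0.69 against -0.29 with ECS. The suffix of this probe set marks probes shared by several transcripts. Without scaling the log2 ratio of Cacna1d with fluoxetine was -0.56, under 1.5-fold. The other L-type gene, Cacna1c, had 0.15 and 0.18, and Cacna1a, the pore of P/Q-type channels at presynaptic terminals, had -0.16 and 0.19. Neither of these readings moved by more than its control spread of 0.23 and 0.21. A dimmer second probe set of Cacna1a had -0.39 and -0.17 at a control spread of 0.33, so that the sign with fluoxetine differed.

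Among the 3 beta subunit genes, which encode the intracellular partner of the pore, Cacnb1 was higher with ECS and none was changed with fluoxetine. The signals of Cacnb1 were 47.9 in the sham pool, 84.6 after ECS, 76.9 in the vehicle pool and 89.4 after fluoxetine. The sham pool was the one that stood apart, and the log2 ratio of 0.82 with ECS was 0.14 when ECS was set against vehicle. Cacnb4 had -0.25 and -0.03, and its second probe set -0.16 in both. Cacnb2 had -0.11 and -0.06, both within its control spread (0.29).

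Of the 5 genes of the gamma family, 1 was lower with both treatments and the others were under 1.5-fold in both. Cacng5 (1434785_at) encodes gamma-5, a TARP that modifies AMPA receptor gating. Its signal was 144 in the sham pool, 77.5 after ECS, 161 in the vehicle pool and 56.8 after fluoxetine. Both treated pools were below both untreated pools, and the log2 ratios were -0.89 and -1.50 at a control spread of 0.31. Cacng2 (stargazin) had log2 ratios of 0.29 and 0.03, Cacng4 -0.19 and -0.18, and Cacng8 0.39 and 0.07. Cacng3 had -0.44 with ECS, which was past its control spread of 0.22, and 0.16 with fluoxetine.

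**Figure D2:**
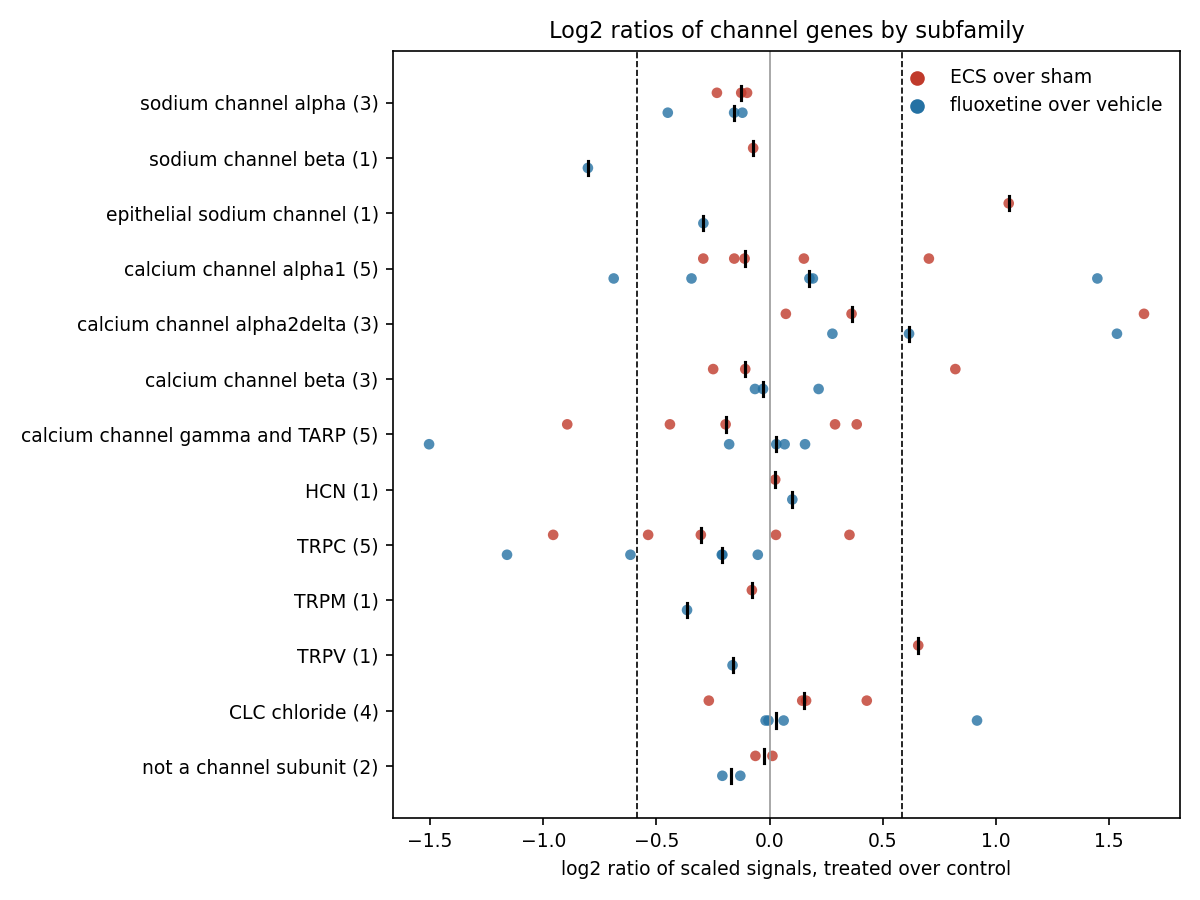
Log2 ratios of the 35 channel genes by subfamily for ECS over sham (red, upper row) and fluoxetine over vehicle (blue, lower row). Points stand for genes, by their brightest probe set, with medians as black bars, 1.5-fold as dashed lines and gene numbers in parentheses. The sodium channel alpha genes lie between -0.45 and -0.10 on scaled signals. The alpha2delta genes lie at 0.07 or higher, where the lowest (Cacna2d1 with ECS) is -0.04 without scaling.

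The promoters of the genes that changed with both treatments are shown because these genes moved together with ECS and fluoxetine. RefSeq windows (GRCm38.p6) run from 250 bases before to 50 after an annotated start, and 28 of the 35 genes matched the table, by 43 windows. Cacna1g was not among them. Letters searched, on both strands, were the cyclic AMP response element TGACGTCA, its core TGACG, which lies within it, and the Egr sites GCGTGGGCG and GCGGGGGCG, and matches are in capitals. The window of Cacna2d2 (chr9:107399630-107399929, plus strand) and the more upstream of both Cacng5 windows (chr11:107915006-107915305, minus strand) read as follows.
Cacna2d2: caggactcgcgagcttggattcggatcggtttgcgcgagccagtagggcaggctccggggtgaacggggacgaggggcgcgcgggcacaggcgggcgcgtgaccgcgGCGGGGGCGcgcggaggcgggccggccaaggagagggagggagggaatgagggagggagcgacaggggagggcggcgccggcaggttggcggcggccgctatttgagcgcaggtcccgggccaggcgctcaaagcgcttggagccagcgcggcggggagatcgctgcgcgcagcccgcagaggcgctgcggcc
Cacng5: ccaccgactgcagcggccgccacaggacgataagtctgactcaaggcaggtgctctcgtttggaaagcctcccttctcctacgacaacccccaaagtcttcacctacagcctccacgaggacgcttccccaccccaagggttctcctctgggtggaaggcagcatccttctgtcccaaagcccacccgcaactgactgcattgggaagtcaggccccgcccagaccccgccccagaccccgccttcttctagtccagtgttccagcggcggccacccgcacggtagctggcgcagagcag
The Cacna2d2 window holds 1 match to the Egr letters and none to the others, and is 75.7% G or C. Neither window of Cacng5 holds any match. Over all 32851 windows of the table, 3.47% hold an Egr match, 1.79% the full cyclic AMP element and 20.8% its core, and the median G or C content is 52.7%. Among the 43 windows of channel genes, 4 hold an Egr match (Cacna2d1, Cacna2d2, Hcn2 and Scn8a) and 2 the full cyclic AMP element (Clcn3 and Clcn4). A match to letters is a description of the sequence and no evidence of binding. Of the 6 genes named here, Cacna2d1 and Cacna2d2 changed with a treatment.

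No sodium channel alpha gene was changed in either comparison. Scn8a, which encodes Nav1.6 of the axon initial segment, had signals of 1933 (sham), 1804 (ECS), 1889 (vehicle) and 1695 (fluoxetine). Its log2 ratios were -0.10 and -0.16, at a control spread of 0.13, and a second probe set had 0.10 and -0.24. Scn2a, the Nav1.2 pore of axons, had -0.13 and -0.12, within its control spread of 0.15, and its second probe set had 0.07 and -0.13. Scn1a, the Nav1.1 pore that is prominent in inhibitory interneurons, had -0.23 and -0.45, while its second probe set had 0.13 and 0.02. The probe sets of Scn1a therefore differed in sign. The beta subunit gene Scn3b (1435767_at), which encodes an auxiliary protein that alters inactivation and surface level of the channel, changed with fluoxetine. Its signals were 2265 in the sham pool, 2154 after ECS, 2363 in the vehicle pool and 1355 after fluoxetine. The other 3 pools lay close together and the fluoxetine pool far below them, with a log2 ratio of -0.80 at a control spread of 0.13. The log2 ratio with ECS was -0.07. A second, dimmer probe set of Scn3b gave -0.63 with fluoxetine and 0.14 with ECS. Scnn1a, which encodes the alpha subunit of the epithelial sodium channel, had signals of 52.4, 109, 76.9 and 62.8 for sham, ECS, vehicle and fluoxetine. The ECS pool was the highest, with a log2 ratio of 1.06, but of 0.50 over the vehicle pool.

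Hcn2, whose channel carries the hyperpolarization-activated current in many central neurons, was level on all arrays. Its signals were 146 in the sham pool, 149 after ECS, 141 in the vehicle pool and 152 after fluoxetine. The log2 ratios of 0.03 and 0.10 were well within the control spread of 0.26. Hcn3 was below the signal filter.

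Of the 5 TRPC genes, Trpc6 was lower with ECS and Trpc1 and Trpc5 were lower with fluoxetine. Trpc5 (1422048_at), a channel known to restrain neurite extension, had signals of 179 in the sham pool, 123 after ECS, 169 with vehicle and 75.7 with fluoxetine. Both treated pools were below both untreated pools. The log2 ratio was -1.16 with fluoxetine, and that of -0.54 with ECS was just short of 1.5-fold and -0.64 without scaling. Trpc6 (1449431_at), a channel gated by diacylglycerol, showed the other order, with signals of 415 (sham), 214 (ECS), 358 (vehicle) and 309.6 (fluoxetine). The ECS pool was the lowest, with a log2 ratio of -0.96, against -0.21 with fluoxetine, at a control spread of 0.19. Trpc1, a subunit that joins other TRPC proteins, had signals of 472, 383, 544 and 356 for sham, ECS, vehicle and fluoxetine. Its log2 ratio of -0.61 with fluoxetine was -0.49 without scaling and -0.41 over the sham pool, and with ECS it was -0.30. Trpc4 had 0.35 and -0.05, and its dimmer probe set 0.67 and 0.03. Trpc7 had 0.03 and -0.21, but its sham and vehicle pools differed by a log2 ratio of 0.80. The difference between the treatments was not tested for any of these genes.

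Trpm7, a channel fused to a kinase and permeable to magnesium, had ratios (log2) of -0.08 and -0.36 for ECS and fluoxetine. Its other probe sets had -0.22 and 0.18, and -0.40 and -0.41, so that none of the 3 was changed. Trpv2 had signals of 71.5 in the sham pool, 113 after ECS, 86.4 with vehicle and 77.1 with fluoxetine. Its log2 ratio of 0.66 with ECS was 0.55 without scaling and 0.38 over the vehicle pool.

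Among the CLC genes, Clcn3 and Clcn4, which encode chloride/proton exchangers of endosomes, were level. Over the 4 probe sets of Clcn3 the log2 ratio ran from 0.11 to 0.17 for ECS and from -0.22 to 0.13 for fluoxetine. Those of Clcn4 had 0.14 and 0.22 with ECS, and 0.06 and 0.25 with fluoxetine. Clcn2, a chloride channel of the plasma membrane, had 0.43 and 0.00, with 0.32 as its control spread. Clcn5, an exchanger of the same endosomal type, had signals of 257 (sham), 213 (ECS), 71.9 (vehicle) and 136 (fluoxetine). The vehicle pool was the lowest and the sham pool the highest, with a log2 ratio of 1.84 between them. The log2 ratio of 0.92 for fluoxetine over vehicle was therefore smaller than the difference between the untreated pools, and fluoxetine over sham gave -0.92. A second probe set of Clcn5 had 0.28 with ECS, 0.59 with fluoxetine and 0.47 for sham over vehicle, so that the sign with ECS (-0.27 for the brighter one) differed between them. Of the genes without a channel subunit, Scnm1 had -0.06 and -0.21 and Trpc4ap 0.01 and -0.13.

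**Figure D3:**
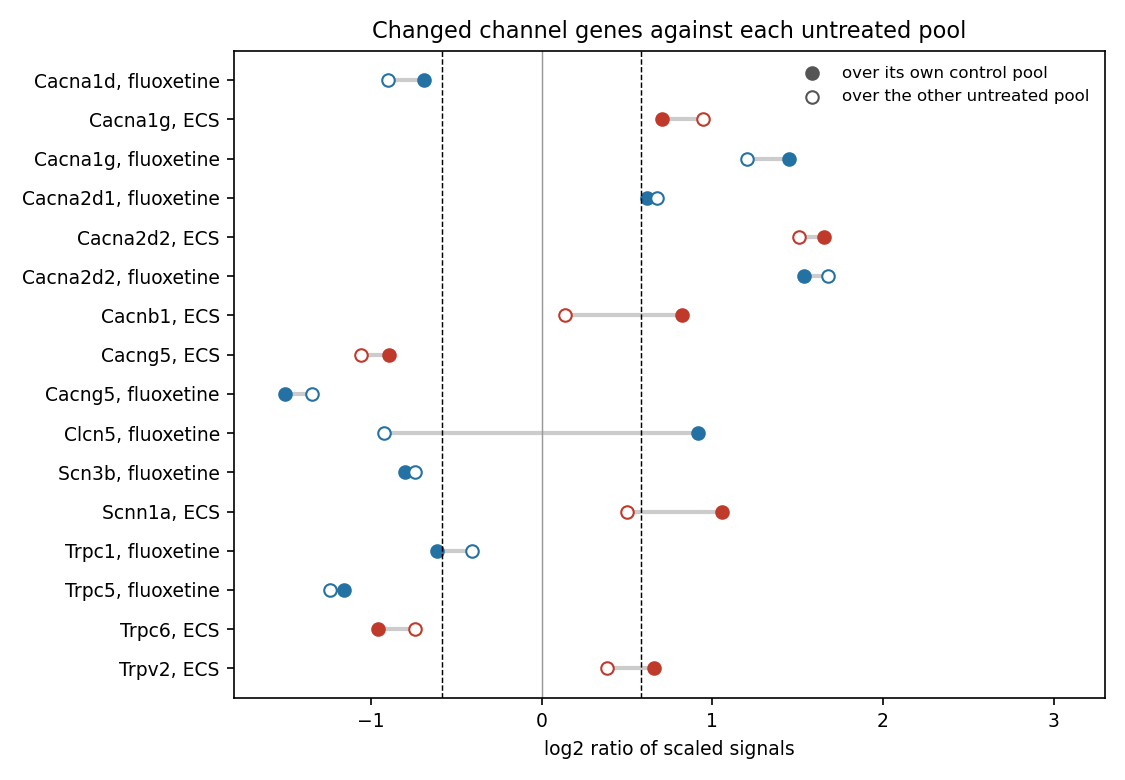
The 16 changes of 1.5-fold or more, each with the treated pool over its own control (filled) and over the other untreated pool (open), as log2 ratios of scaled signals (red, ECS; blue, fluoxetine). Dashed lines mark 1.5-fold. Filled and open symbols both lie past 1.5-fold, on the same side, for Cacna1d, Cacna1g, Cacna2d1, Cacna2d2, Cacng5, Scn3b, Trpc5 and Trpc6. They lie on opposite sides of 0 for Clcn5.

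Because each treated pool can be set against both untreated pools, a stricter count was made of genes at least 1.5-fold away from both. With ECS, 2 of the 35 were higher (Cacna1g and Cacna2d2) and 2 lower (Cacng5 and Trpc6), where 3.83% and 2.65% of all genes were higher and lower by this count. With fluoxetine, 3 were higher (Cacna1g, Cacna2d1 and Cacna2d2) and 4 lower (Cacna1d, Cacng5, Scn3b and Trpc5), against 4.1% and 3.64% of all genes. The changes of Cacnb1, Scnn1a, Trpv2, Clcn5 and Trpc1 did not meet it. Without any size, both treated pools were above both untreated pools for 8 of the 35 genes (22.9%, against 24.4% of all genes). They were below for 12 (34.3%, against 23.1%). The 12 were Cacna1d, Cacna1h, Cacng4, Cacng5, Scn1a, Scn3b, Scn8a, Scnm1, Trpc1, Trpc5, Trpc6 and Trpm7, and 6 of them were under 1.5-fold in both comparisons. Scnm1 is no channel subunit. These counts rest on the brightest probe sets. In the second probe sets of Scn1a, Scn3b and Scn8a the ECS pool lay above sham, as did the fluoxetine pool in 1416800_at of Trpm7. The dimmest probe set of Trpm7 lay below both untreated pools. Second probe sets of Cacna2d1 and Clcn4 lay above both, as their brightest did.

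The ratios of both treatments were next set side by side, since the comparisons share no array. Of the 35 genes, 25 had the same sign in both (71.4%, against 66.8% of all genes). Across the 35 genes the ratios correlated at 0.50 (Spearman) and 0.61 (Pearson). Across all 7935 genes the values were 0.49 and 0.63, so the channel genes gave about the same figures as the rest. Genes share arrays and are not independent replicates, and the coefficients describe these arrays only. Of the 16 genes named as calcium channel subunits 14 had the same sign, with 4 of the 5 in the gamma family, and of the 7 TRP genes 4 did.

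**Figure D4:**
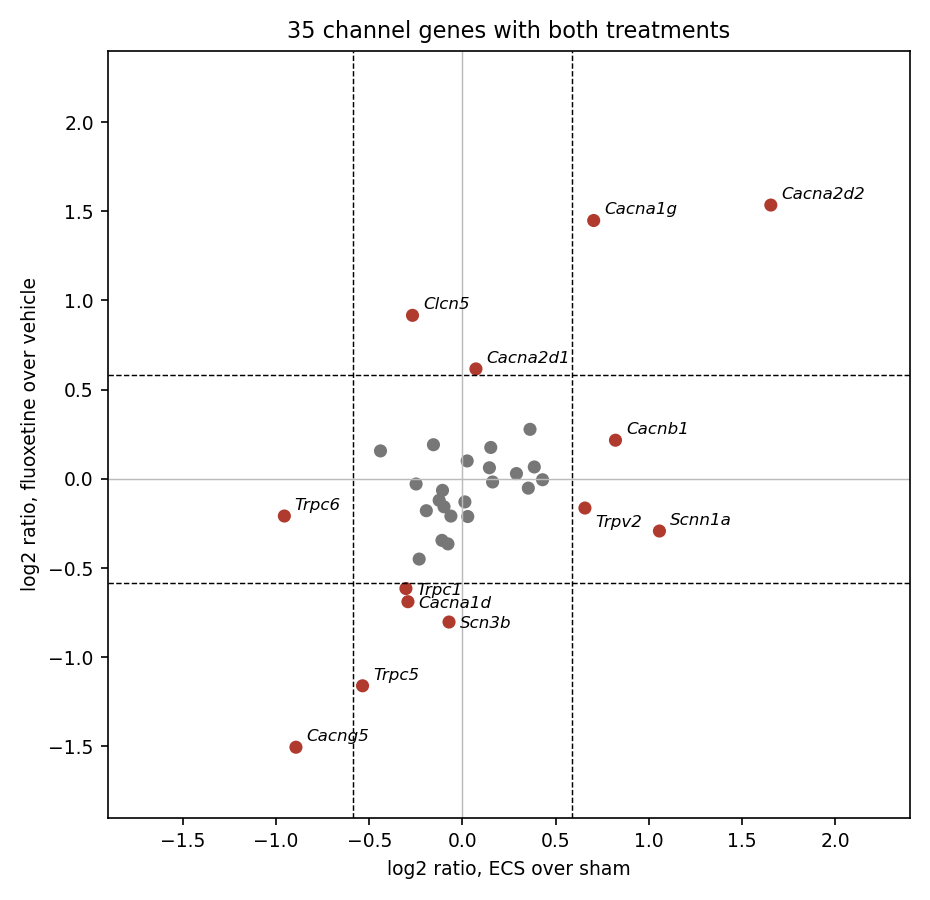
Log2 ratio with ECS (horizontal) against that with fluoxetine (vertical) for each of the 35 channel genes. Genes changed at least 1.5-fold in at least 1 comparison are named and red, and dashed lines mark 1.5-fold. Cacna2d2 and Cacna1g lie at the upper right and Cacng5 at the lower left, while the 22 grey points lie within 1.5-fold on both axes.

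Of the 35 genes, 12 had a second probe set past the filter, which gave 15 pairs in all. The call of the other probe set was the same in 14 pairs with ECS and in all 15 with fluoxetine. The median difference in log2 ratio within a pair was 0.20 with ECS and 0.18 with fluoxetine. Of the 13 changed genes, Cacna2d1, Scn3b and Clcn5 had such a second reading, and the remaining ones rest on 1 probe set past the filter. Further probe sets below the filter are dim and did not always follow the call. For Cacna1d such a probe set had -0.95 with fluoxetine, while for Trpc1 it had -0.02 with fluoxetine and -1.27 with ECS. For Cacnb1 the brighter of 2 had 0.61 with ECS. Those of Cacna2d2 and Cacng5 had mean deposited signals of 8.38 or less, and with ECS the ratios had the opposite sign to the call (-0.73 and -0.44 for Cacna2d2, 3.44 for Cacng5). Dim signals contributed more changes with ECS. Of the 16 genes with a mean signal under 200, 5 were changed with ECS and 4 with fluoxetine, and of the 19 at 200 or more, 2 and 5 were. Over all genes the shares were 15.4% and 17.2% under 200, and 6.48% and 7.72% at 200 or more.

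Genes whose products work with these channels were described by a list of 43, of which 21 passed the filter. With ECS 2 were higher and 2 lower, and with fluoxetine 1 was higher and 2 lower. That is 19.0% and 14.3% changed, against 9.53% and 11.0% of all genes. The changed genes include Calb1 and Calb2, which are also cell type markers below, and the list was set with earlier results known. These shares are therefore no result about the partners as a set. The medians over the 21 were 0.13 and 0.05. The 7 measured partners of sodium channels, among them Fgf13 and Fgf14 (intracellular modulators of inactivation) and Ank3 (ankyrin-G, which anchors sodium channels at the initial segment), were changed with neither treatment. Their log2 ratios ran from -0.05 to 0.26 with ECS and from -0.50 to 0.22 with fluoxetine. Rem2, a small GTPase that inhibits calcium channels, had signals of 122 (sham), 187 (ECS), 103 (vehicle) and 135 (fluoxetine). Its log2 ratios were 0.61 and 0.39. Ryr1, a calcium release channel of the endoplasmic reticulum, was lower with both, at 126 and 69.6 for sham and ECS and 115 and 34.5 for vehicle and fluoxetine. Its log2 ratios were -0.85 and -1.74, whereas Ryr2 had 0.02 and -0.11. The calcium-binding proteins calbindin and calretinin were also on the list. Calb1 had -1.34 and -2.12 and Calb2 0.96 and 0.85, where fluoxetine over sham gave 0.29 for Calb2. Pex5l, which binds HCN channels, had 0.23 and 0.04.

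Markers of cell types were read on the same arrays. Of 8 granule cell markers listed, 5 were measured, and their summed signal was 8566 in the sham pool, 4265 after ECS, 8911 in the vehicle pool and 2701 after fluoxetine, of which Calb1 alone made up 4552, 1800.1, 4545 and 1045. By gene, 3 of the 5 were lower with ECS and 4 with fluoxetine (Tdo2 -2.28 and -3.41, Dsp -0.60 and -1.38, Lct -0.48 and -1.22), and Prox1 had -0.08 and 0.09. The 5 immature granule cell markers summed to 2862, 3583, 2618 and 3527 in the same order. Neurod1 alone made up 1806, 1620, 1711 and 1513 of these sums. By gene, 3 of the 5 (Sox11, Calb2 and Igfbpl1) were higher with both treatments. For Calb2 the sham and vehicle pools differed by 0.56, and fluoxetine over sham was 0.29. Dcx had 0.93 with ECS and 0.35 with fluoxetine, and Neurod1 had -0.16 and -0.18. The 7 interneuron markers summed to 6514, 7534, 6148 and 7063, mostly from Gad1 (0.12 and 0.17). Gad2 was higher with both (0.84 in each) and Vip with fluoxetine (0.81, but 0.36 over the sham pool). The other 5 were under 1.5-fold in both, with Slc32a1 at -0.02 and 0.20. The 7 astrocyte markers summed to 5719, 6662, 6022 and 8269, and 1 was higher with ECS and 2 with fluoxetine. These were Gfap (2.35 and 2.30) and, with fluoxetine, Aqp4 (0.74), while Slc1a3 had -0.53 and -0.08. Of the microglia and oligodendrocyte markers (6 and 5 measured), none was changed. Of 3 pyramidal cell markers Bok was higher with both (0.94 and 0.73), while Wfs1 had -0.28 and -0.26 and Neurod6 -0.29 and -0.02. Of 3 meningeal markers Ogn was lower with both (-3.34 and -3.18), Dcn was higher with fluoxetine (1.19), and Lum was under 1.5-fold in both. In the remaining lists the changed markers with ECS were Calcrl of mossy cells (-0.69) and Kdr of endothelial cells (0.66). With fluoxetine they were Pdgfra of oligodendrocyte precursors (-0.75) and Kl of the choroid plexus (-0.89). The sham and vehicle pools differed by -0.73 for Calcrl, and the mossy cell marker Nmb had 0.10 and -0.44. The other measured endothelial markers had 0.07 to 0.33 with ECS. For the precursor markers Cspg4 and Olig1 the values with fluoxetine were 0.27 and -0.13. Kl was the only 1 measured of 6 choroid plexus markers, and had -0.52 for fluoxetine over sham. No measured marker was at 0 on any array. The part of these cell types in the ratios of Cacna1g, Cacna2d2, Cacng5 and the other channel genes was not tested.

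The 25 channel genes below the signal filter had mean signals of 2.33 to 43.6. Just inside the filter were Trpc7 (mean deposited signal 50.45) and Cacng8 (64.9), and just outside Cacng7 (43.6) and Clcn6 (43.3). Below it were the sodium channel genes Scn3a, Scn7a, Scn9a, Scn10a, Scn11a, Scnn1b and Scnn1g and the calcium channel genes Cacna1b, Cacna1e, Cacna1f, Cacna1s, Cacng1, Cacng6 and Cacng7. Hcn3, Clcn1, Clcn6, Clcn7, Trpc2, Trpm1, Trpm5, Trpm6, Trpm8, Trpv4 and Trpv6 were below it as well. A low signal of a probe set does not show that the gene is silent. For Cacna1b and Cacna1e, pores of neuronal N-type and R-type channels, it gives no more than a missing reading.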

How the data were processed

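RNA of the dentate gyrus was measured on 4 arrays, 1 pooled RNA sample per group, so no test was run. The authors made the values with MAS5, and the deposited values are linear signal intensities without a common scale (median 236, 219, 335 and 365 for sham, ECS, vehicle and fluoxetine over probe sets past the filter). Depth does not apply to arrays, and their number limits the precision. Of 22690 probe sets, 64 controls were left out, 20380 were annotated to 1 gene, 691 to several and 1555 to none. Those with a mean deposited signal of at least 50 (13422) were kept, and the brightest stood for its gene. All 35 symbols were current in RefSeq. Each array was scaled to a common median log2 signal in pandas 2.3.3 (numpy 2.4.6, scipy 1.17.1, Python 3.11.15), with matplotlib 3.10.9 for figures. The calculation was tested on simulated data. The channel genes, the gene lists and the measures were chosen with earlier results of these data known. Named are all channel genes changed 1.5-fold in a comparison, the brightest of every subfamily, Hcn genes, changed partner genes, genes next to the filter and markers, and other members were added for completeness. Alternatives were signals as deposited, other normalizations, filters, fold sizes, pseudocounts and exchanged controls. Array scans and detection calls were not used here.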

Additional observations from a re-analysis of the deposited data

Results flagged for a closer look

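For 3 channel genes the ratios with ECS and with fluoxetine pointed in opposite directions, at least 1 of them past 1.5-fold. The difference between the treatments was not tested, since each rests on 1 array per group. The log2 ratio with ECS minus that with fluoxetine was -1.18 for Clcn5, 1.35 for Scnn1a and 0.82 for Trpv2. Each of the 3 also had sham and vehicle pools that differed, by log2 ratios of 1.84, -0.55 and -0.27, and Scnn1a and Trpv2 had dim signals. The fluoxetine ratios of Scnn1a (-0.29) and Trpv2 (-0.16) were within their control spreads of 0.36 and 0.32. The second probe set of Clcn5 had the same sign with both treatments (0.28 and 0.59), and the mean over its probe sets was 0.0083 with ECS.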

How the results depend on the processing

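With no filter on the mean signal (60 genes), 11 were higher and 10 lower with ECS and 12 and 11 with fluoxetine, in place of 5, 2, 4 and 5. At a mean signal of at least 200 (19 genes) the counts were 1, 1, 2 and 3. That is 10.5% changed with ECS and 26.3% with fluoxetine, against 6.48% and 7.72% of all genes at that signal. With the filter at 50, the counts were 10, 7, 5 and 9 at 1.2-fold, and 2, 0, 2 and 2 at 2-fold. Shares of all genes were not taken without the filter, at 1.2-fold or at 2-fold. The counts under those settings therefore do not show whether the channel genes differ from all genes. With the signals as deposited 3 genes were lower with fluoxetine, and the medians were -0.17 with ECS and 0.061 with fluoxetine. The ratio of Clcn5 with fluoxetine turned to -0.92 when the control arrays were exchanged. Of 598 values of single genes under the alternatives, 570 moved by less than the control spread, 27 by more, and 1 changed sign as a call. Many of these values could not move. Another filter leaves the ratio of a gene as it was, and the mean over probe sets alters only the 12 genes with a second one. Signals as deposited shift all genes by the same amount. The counts are therefore no measure of how firm the ratios are. Of 16 calls, 10 held under every alternative run, where the filters could not undo a call. The others were Trpv2 (lost as deposited, with exchanged controls and with a pseudocount of 16), Trpc1 (lost as deposited and with exchanged controls), Cacna1d (lost as deposited), and Cacnb1, Scnn1a and Clcn5 (lost with exchanged controls). The cause was not tested. No paired analysis was possible because each group has 1 array.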

Other observations

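Hcn3, which encodes another HCN channel, was below the signal filter, with a mean deposited signal of 38.25. Its scaled signals were 20.8 in the sham pool, 74.8 after ECS, 21.2 in the vehicle pool and 40.4 after fluoxetine. Both treated pools were above both untreated pools, with log2 ratios of 1.85 and 0.93. With signals below 50 taken as 50, they were 0.58 and 0.00, so that the size of the difference depends on signals under the filter.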
